A study of Mus musculus with 8 samples.

Results

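Eosinophils are granulocytes packed with cationic proteins, and 9 mouse genes for those proteins and for a lectin on the eosinophil surface are described here in embryos that lack an enhancer of Gata2. The genes are Ear1, Ear2, Ear6, Ear10 and Rnase2a, which encode eosinophil-associated ribonucleases, Prg2 and Prg3, which encode the major basic proteins, Epx, which encodes eosinophil peroxidase, and Siglecf, which encodes a sialic acid-binding receptor. They are 9 of the 21794 named genes tested, and they were read by 10 of the array's probes, 1 for each gene and 2 for Siglecf. They were chosen by name with their mutant and wild type values already known, so the genotype differences below are a description of these arrays and carry no test.

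The arrays compared 4 embryos labelled Gata2 +9.5 mutant, homozygous by their labels, with 4 wild type littermates. All came from crosses of heterozygous parents on a C57Bl/6J background, at embryonic stage E12.5, and each genotype had 2 embryos in litter 1 and 2 in litter 2. The +9.5 element is an enhancer within the Gata2 gene, and Gata2 is a transcription factor of blood stem and progenitor cells. Carcasses without liver and brain were dissociated with collagenase, cells carrying CD31 were enriched on antibody-coated magnetic beads, and RNA of each embryo was hybridised to its own 1-colour array. The enriched cells are a mixture, because CD31 is carried by endothelium and also by many blood cells.

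Eosinophils arise from myeloid progenitors under GATA and C/EBP factors and under interleukin 5, which acts through a receptor built from Il5ra and Csf2rb. Their crystalloid granules hold major basic protein in the core, with the peroxidase and the ribonucleases around it. Several of these genes are not restricted to eosinophils in the mouse: Siglecf is also known from alveolar macrophages, and Ear2 from monocytes.

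On the array the values are log2 signals relative to the 75th percentile of each array's own spots, so 0 is that percentile and 1 unit is a doubling. The 75th percentile lay between 1018 and 1549 signal units on mutant arrays and between 996 and 2481 on wild type arrays, and between 74.9% and 92.0% of spots were well above background. The number of arrays limits the precision, and over 399 probes spotted more than once the median SD between spots of an array was 0.0927 to 0.160 log2 units. Gata2, whose enhancer was altered, had -1.24, -0.15, -1.27 and -1.07 in mutants 1 to 4, against 2.00, 1.66, 0.89 and 1.42 in wild types 1 to 4, so every mutant was lower than every wild type. Its difference of -2.42 ± 0.39 (SE) did not pass limma's test after Benjamini-Hochberg adjustment over 40227 features (adjusted p = 0.0858). Gata2 passed under 2 of the alternatives given at the end. All 10 endothelial markers were measured, with median levels of 3.79 to 5.08 on mutant arrays and 3.38 to 5.01 on wild type arrays, and none of them passed the threshold. Replicates were separate embryos.

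The probes were 60 bases long, and their sequences decide which ribonuclease genes each one can read, so the stretches that relatives share are shown first. The positions are those of the array's mm9 annotation, and exon or UTR placement was not determined here. The Ear1 probe lies at chr14:44396709-44396768 on the minus strand and the Ear7 probe at chr14:52473974-52474033 on the plus strand. They share a run of 20 bases, in capitals, and 83.6% of 55 aligned bases.
Ear1: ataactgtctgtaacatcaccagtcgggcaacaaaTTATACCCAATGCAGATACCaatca
Ear7: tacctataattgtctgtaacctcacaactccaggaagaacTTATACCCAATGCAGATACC
The Ear10 probe lies at chr14:44500615-44500674 on the minus strand and the Ear12 probe at chr14:44680899-44680958 on the plus strand, and they share the run of 23 bases in capitals.
Ear10: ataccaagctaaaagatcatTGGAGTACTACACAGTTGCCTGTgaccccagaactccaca
Ear12: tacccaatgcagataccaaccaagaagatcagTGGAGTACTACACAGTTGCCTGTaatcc
The Ear2 probe at chr14:44681119-44681178 and the Ear6 probe at chr14:52474253-52474312, both on the plus strand, were alike at 88.9% of 45 aligned bases, and 30 bases of each end in the shared run of 23 bases in capitals.
Ear2: taattttGCTGAATAGATCTTTTCTAATTA
Ear6: taactcaGCTGAATAGATCTTTTCTAATTA
The array's annotation gives transcripts of both Ear1 and Ear2 for the Ear2 probe. Signals of the Ear genes may therefore hold RNA of their close copies, and the 5 ribonuclease probes cannot be taken as 5 independent readings. Among these 5 probes themselves, only those of Ear2 and Ear6 shared a run longer than 7 bases.

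The probes of the other genes are shown because each is the only reading of its gene or, for Siglecf, because the pair of probes did not give the same result. The Rnase2a probe, which the array's annotation calls Ear11, lies at chr14:51875064-51875123 on the minus strand, and its first 30 bases are given. The Prg2 probe lies at chr2:84822799-84822858, on the plus strand. The Prg3 probe, also on the plus strand, is spread over 1510 bases at chr2:84831668-84833177 and so crosses a gap in the genome. The Epx probe lies at chr11:87678288-87678347 on the minus strand.
Rnase2a: gatattttagctccagtgccagcactttgt
Prg2: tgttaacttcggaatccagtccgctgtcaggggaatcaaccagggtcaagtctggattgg
Prg3: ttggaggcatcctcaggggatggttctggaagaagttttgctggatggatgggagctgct
Epx: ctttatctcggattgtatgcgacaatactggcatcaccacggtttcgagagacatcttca
The Siglecf probes, which the array's annotation calls Siglec5, lie on the plus strand at chr7:50614768-50614827 and chr7:50611746-50611805. The first 30 bases of the brighter probe come before all 60 bases of the dimmer one.
Siglecf brighter: ggccagcaaacatacaagaaggtaatctca
Siglecf dimmer: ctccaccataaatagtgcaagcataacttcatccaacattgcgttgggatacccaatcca

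All 9 genes had a lower mean in mutants than in wild types at their brightest probe. The differences ran from -5.43 for Ear2 to -1.24 for Siglecf, with a median of -2.12, beside a median of 0.05 over all features tested. In 7 of the 9 genes every mutant array was lower than every wild type array, and Prg3 and Siglecf were the exceptions; over all features 0.532% had all mutant values under all wild type values. By limma's adjusted p, 3 of the 9, Ear2, Rnase2a and Prg2, would pass the threshold of 0.05, beside 0.0447% of all features lower in mutants, and since the genes were chosen on these values nothing is read from either count. All 9 passed the filter, a signal well above background on 4 or more arrays, which the wild type arrays alone could meet. In bulk RNA of this kind, fewer cells of a type and less RNA per cell cannot be told apart.

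**Figure D1:**
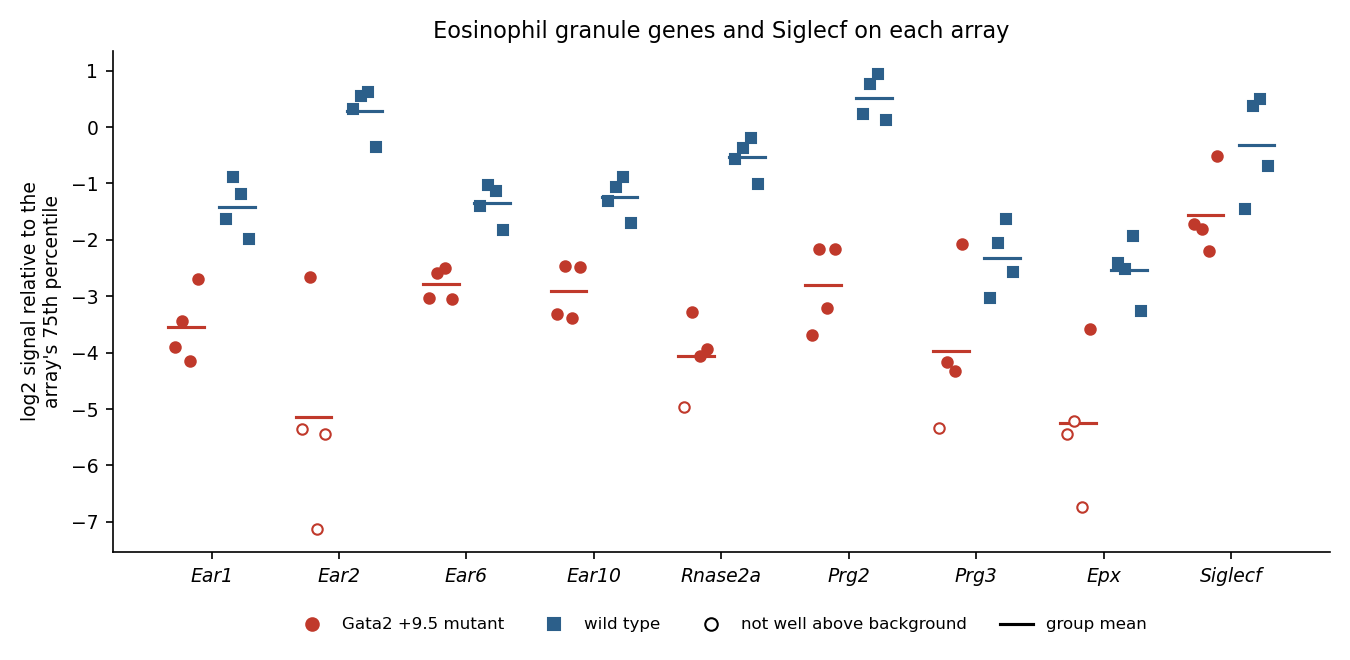
Log2 signal relative to the array's 75th percentile (vertical axis) for each of the 9 genes at its brightest probe, with mutant arrays (red circles) left of wild type arrays (blue squares); horizontal lines are group means, and open symbols are spots not well above background. Mutant and wild type points are apart in 7 genes and overlap in Prg3 and Siglecf, and every open symbol belongs to a mutant array.

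Ear2, a ribonuclease of the eosinophil granule, showed the widest separation of the 9 genes. Its values were -5.35, -2.65, -7.13 and -5.45 in mutants 1 to 4, against 0.32, 0.55, 0.61 and -0.34 in wild types 1 to 4. In signal units these were 28.0, 162, 9.74 and 35.5 in the mutants, against 1240, 2096, 3796 and 1013 in the wild types. The spot was well above background in mutant 2 and in none of the other mutants, while all 4 wild type spots were. The difference was -5.43, a 43.1-fold lower signal in mutants, and its size rests on spots that were mostly not well above background: with signals floored at the lowest reading well above background on each array it was -4.59.

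Rnase2a, another ribonuclease of the family, lies on the same chromosome as Ear2 but 7150 kb away in the RefSeq annotation of GRCm38.p6. It had -4.96, -3.28, -4.05 and -3.94 in mutants 1 to 4, against -0.57, -0.37, -0.20 and -1.01 in wild types 1 to 4. Mutant 1 was the lowest and not well above background, and the nearest values of the groups, in mutant 2 and wild type 4, were still more than 2 log2 units apart. The means were -4.06 ± 0.69 in mutants and -0.54 ± 0.35 in wild types (SD, n = 4 each), an 11.5-fold lower signal in mutants.

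The other ribonucleases differed less and were well above background on all 8 arrays. Ear1 had -3.90, -3.43, -4.14 and -2.69 in mutants 1 to 4, against -1.62, -0.89, -1.19 and -1.99 in wild types 1 to 4. Mutant 4 was the highest of the mutants and still under wild type 4, the lowest of the wild types, and the mean difference was -2.12, 4.34-fold lower. Ear10 had -3.31, -2.46, -3.38 and -2.48 in mutants 1 to 4, against -1.31, -1.07, -0.88 and -1.70 in wild types 1 to 4, with a difference of -1.67. Ear6 had -3.04, -2.59, -2.50 and -3.04 in mutants 1 to 4, against -1.39, -1.03, -1.13 and -1.82 in wild types 1 to 4, with a difference of -1.45. Neither gene overlapped between the genotypes, and Ear6 had the smallest spread among mutants of the 9 genes, with an SD of 0.29 against 0.35 among wild types.

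Prg2 encodes the major basic protein that forms the crystalline core of the granule. It had -3.69, -2.16, -3.21 and -2.15 in mutants 1 to 4, against 0.23, 0.77, 0.95 and 0.13 in wild types 1 to 4. The groups were far apart, and all 8 spots were well above background, so that unlike Ear2 the size of the difference was measured on both sides. The mean was -2.80 ± 0.77 in mutants and 0.52 ± 0.40 in wild types (SD, n = 4 each), a difference of -3.33.

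Prg3 encodes a second major basic protein and lies next to Prg2, 4.56 kb away on chromosome 2 in the RefSeq annotation of GRCm38.p6. It had -5.33, -4.17, -4.32 and -2.08 in mutants 1 to 4, against -3.02, -2.05, -1.63 and -2.58 in wild types 1 to 4. Mutant 4 lay above wild types 1 and 4, so the groups overlapped, while mutants 1 to 3 were below all wild types. The difference was -1.66 over all arrays and -2.29 without mutant 4.

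Epx encodes the peroxidase that makes hypohalous acids in the eosinophil granule. It had -5.44, -5.20, -6.74 and -3.58 in mutants 1 to 4, against -2.42, -2.52, -1.93 and -3.26 in wild types 1 to 4. The groups did not overlap, but mutant 4 was close below wild type 4 and was the one mutant with a spot well above background. The difference of -2.71, 6.54-fold lower, became -2.09 with floored signals and -1.19 after background correction by normexp with quantile normalization.

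Siglecf is a receptor on the cell surface that binds sialylated sugars and carries inhibitory motifs, and it marks mature eosinophils. Its brighter probe had -1.72, -1.80, -2.20 and -0.51 in mutants 1 to 4, against -1.46, 0.37, 0.50 and -0.70 in wild types 1 to 4. Mutant 4 lay above wild types 1 and 4, so the groups overlapped, and the difference of -1.24 was 2.36-fold lower in mutants. The dimmer probe had -3.74, -5.01, -5.86 and -3.50 in mutants 1 to 4, against -5.57, -4.65, -4.06 and -4.16 in wild types 1 to 4. It was well above background on 2 mutant and 3 wild type arrays and showed a difference of 0.08, so the lower level in mutants was read by only 1 of the 2 probes.

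**Figure D2:**
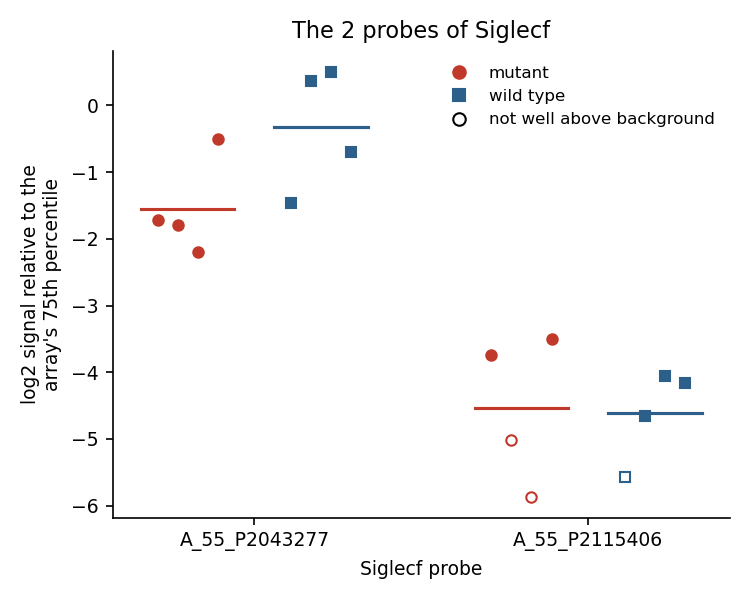
Log2 signal relative to the array's 75th percentile (vertical axis) for the 2 probes of Siglecf, with mutant arrays (red circles) left of wild type arrays (blue squares); lines are group means, and open symbols were not well above background. The brighter probe has group means of -1.56 in mutants and -0.32 in wild types, and the dimmer probe has overlapping groups near background.

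The arrays of a genotype were not interchangeable across the 9 genes. Mutant 4 was the highest mutant in 5 genes and mutant 2 in 3, and mutant 3 was the lowest in 5. Among wild types, wild type 3 was the highest in 7 genes and wild type 4 the lowest in 7. Mutant 4, wild type 2 and wild type 3 stood apart from the other arrays on the first principal component in earlier work on these files, and mutant 4 and wild type 3 also had the narrowest spread of signals, with interquartile ranges of 2.91 and 3.42 log2 units on a scale where the widest, mutant 2, had 4.39. The part of array quality in the values of these arrays was not tested. Without the 3 arrays, the difference was -5.03 for Ear2, -3.20 for Prg2, -2.96 for Epx, -1.81 for Prg3 and -0.83 for Siglecf.

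Litter was not used to choose the genes and could be tested. By limma, none of the 9 genes had an unadjusted p under 0.05 between litter 2 and litter 1. Over all 40227 features, 7230 were higher and 3162 lower in litter 2 at that level. None of the 9 genes passed limma's adjusted threshold, beside 4.01% of all features higher and 0.895% lower in litter 2. That split, 1615 higher and 360 lower, depends on the scaling: it was 451 higher and 560 lower relative to the array median. With the authors' deposited log2 values, tested over 36351 features in place of 40227, it was 684 higher and 852 lower. Those values gave Ear2 and Prg3 the same litter differences as the array median, so they are not a further scaling for these genes. Under the alternatives, Ear2 passed with the authors' values, with a difference of -1.76 (limma adjusted p = 0.0139). Relative to the array median the Ear2 difference was also -1.76 and did not pass (limma adjusted p = 0.0785). Epx passed without the 3 arrays that stood apart, with a difference of -1.17 (limma adjusted p = 0.0489). Ear2 had the lowest estimate, with a mean of -3.08 in litter 2 and -1.78 in litter 1 (n = 4 each), a difference of -1.29 ± 0.68 (SE; 95% interval -2.83 to 0.24; limma adjusted p = 0.249). This difference was -0.56 without mutant 2 and -0.61 with floored signals, and 3 of the 4 mutant spots of Ear2 were not well above background. Prg3 had the highest, with -2.65 in litter 2 and -3.64 in litter 1, a difference of 0.99 ± 0.56 (SE; 95% interval -0.27 to 2.25; limma adjusted p = 0.275). The median over the 9 genes was 0.00, beside 0.32 over all features. The intervals of Ear2 and Prg3 each reach beyond a 4-fold difference, so a litter difference of that size is within the error.

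**Figure D3:**
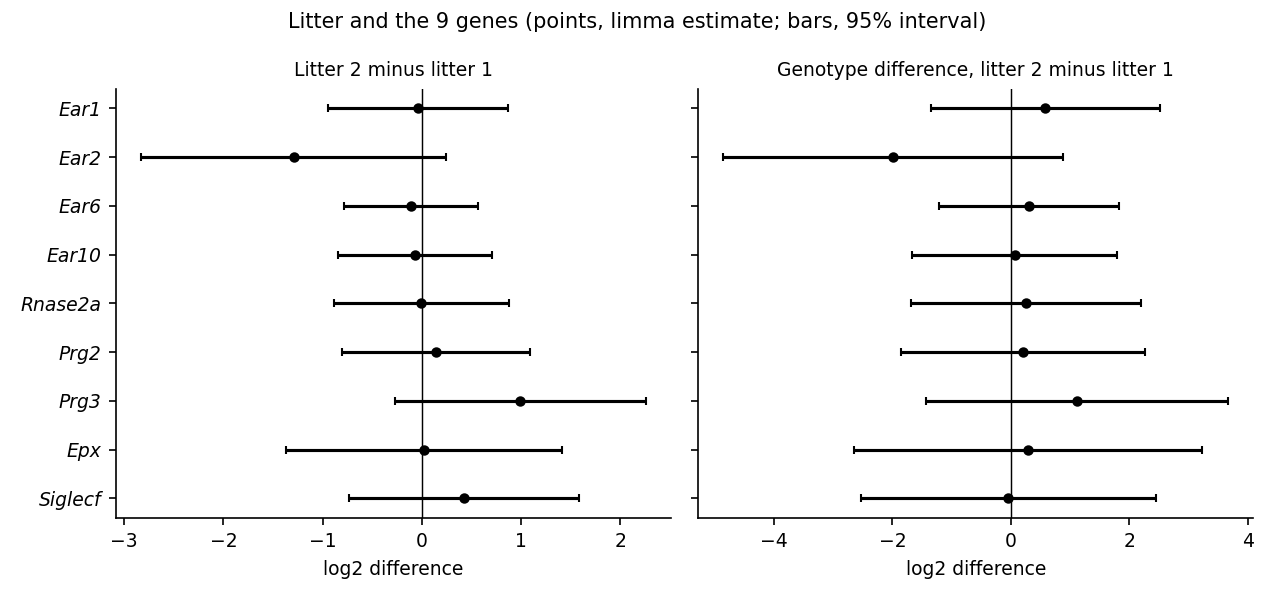
Left, log2 difference of litter 2 minus litter 1 with genotype in the fit; right, the mutant minus wild type difference in litter 2 minus that in litter 1; points are limma estimates and bars 95% intervals for the 9 genes. Every interval includes 0 in both panels, and the interval of Ear2 in the right panel runs from -4.85 to 0.87.

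The size of the genotype difference was also set against itself between litters. For Ear2 it was -6.42 in litter 2 and -4.44 in litter 1, an interaction of -1.99 ± 1.26 (SE; 95% interval -4.85 to 0.87), which was -0.64 without mutant 2 and -0.62 with floored signals. For Prg3 it was -1.10 in litter 2 and -2.21 in litter 1, an interaction of 1.11 ± 1.12 (SE; 95% interval -1.44 to 3.67). No gene of the 9 passed in limma's interaction test (adjusted p = 0.999967 for each; none with an unadjusted p under 0.05), and over all 40227 features 0 passed, with 490 at an unadjusted p under 0.05. Both mutants lay under both wild types in 7 of the 9 genes in litter 2 and in 9 of 9 in litter 1, where the shares over all features were 3.75% in litter 2 and 24.7% in litter 1.

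**Figure D4:**
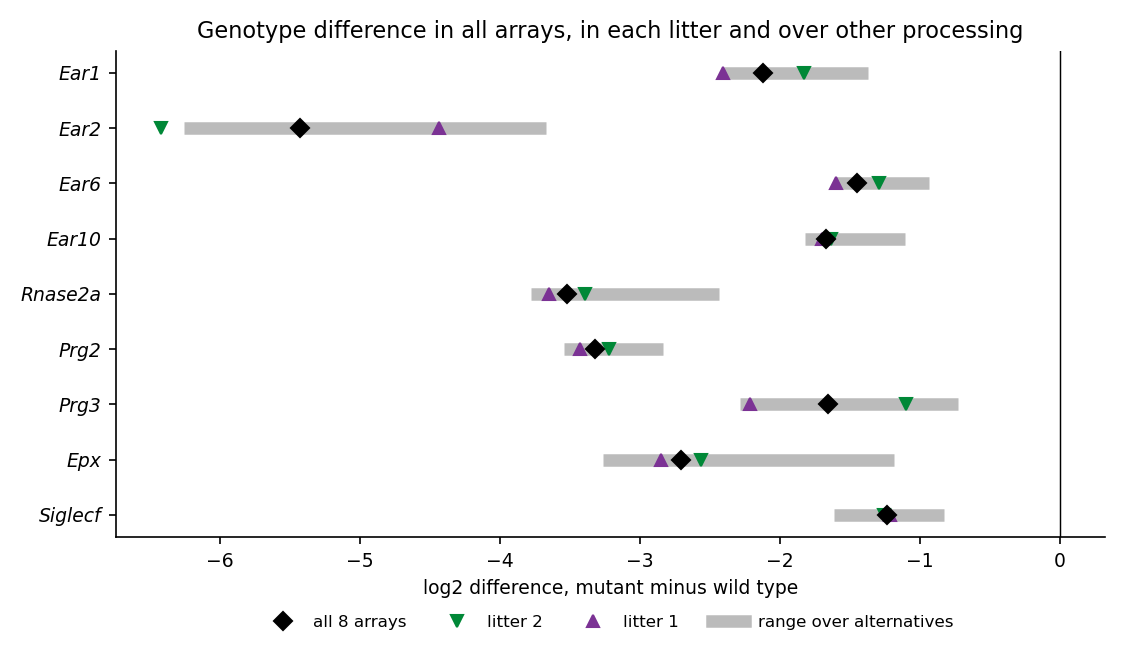
Log2 difference, mutant minus wild type (horizontal axis), of each gene at its brightest probe over all 8 arrays (black diamonds), in litter 2 (green) and in litter 1 (purple). The dimmer Siglecf probe, with a difference of 0.08, is not drawn. Grey bars are the range over other ways of processing the arrays and over leaving arrays out. All points and bars lie below 0, and Ear2 has the widest bar, from -6.26 to -3.67.

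The ribonuclease, peroxidase and Siglec families hold relatives that are not among the 9 genes. Of 32 relatives listed, 26 were on the array and 21 were tested; 14 had a lower and 7 a higher mean in mutants, with a median difference of -0.37 beside 0.05 over all features, and 1 passed the threshold. That gene was Mpo, the peroxidase of neutrophil granules, which had a mean of -2.33 in mutants and 2.55 in wild types, a difference of -4.88 ± 0.63 (SE; limma adjusted p = 0.0340). Mpo lies 59.6 kb from Epx and Lpo 37.9 kb from Epx on chromosome 11, and Lpo, the peroxidase of secretions, had a difference of 0.29 ± 0.33. The call of Mpo was lost without any one of 6 arrays (mutants 1 and 3 and wild types 1 to 4) and with litter as a block.

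Values of other relatives, picked after they were seen, are given as levels and differences without a call. Ear12, whose probe shares a run with that of Ear10, had a mean of -3.02 in mutants and -1.34 in wild types, a difference of -1.68 ± 0.49 (SE; limma adjusted p = 0.717) with overlapping groups. The array's annotation places this probe 160 bases before the Ear2 probe on the same strand, and the Ear7 probe 219 bases before the Ear6 probe, so whether they read genes of their own is not settled here. The probes named Ear12 and Ear2 lay side by side but differed in size of difference, -1.68 against -5.43. The probe that the array's annotation names Ear4, and for which it also lists a transcript of Ear14, had -2.44 in mutants and -1.39 in wild types (limma adjusted p = 0.717). Rnase2b had -4.70 in mutants and -4.41 in wild types, and Ear7 was well above background on 1 mutant and 2 wild type arrays and was not tested. Among the Siglecs, Siglece had 0.76 in mutants and 0.68 in wild types, and Siglech had 6.18 in mutants and 5.86 in wild types. Their differences were smaller than their standard errors of 0.39 and 0.35. Siglech is known as a marker of plasmacytoid dendritic cells. Of the other Siglecs tested, Mag was higher in mutants, with a difference of 0.15. Siglec1, Cd22, Siglecg and Cd33 were lower, with differences of -0.87, -0.56, -0.45 and -0.34. No Siglec of this list passed.

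Genes that drive eosinophil production were read next, through a list of 21 receptors, cytokines and transcription factors. All 21 were tested, 13 had a lower mean in mutants, and the median difference was -0.33, beside 0.05 over all features. By limma 0 passed in either direction, while 8 had an unadjusted p under 0.05, all of them lower in mutants. Over all 40227 features, 1074 were lower and 153 higher in mutants at that level. In 5 of the 8, Gata2, Gfi1, Gata1, Csf2rb and Csf2rb2, every mutant was lower than every wild type, beside 0.532% of all features. These 5 were picked by that pattern after the values were seen. Gfi1, a repressor needed in granulocyte development, had a mean of -3.64 in mutants and -1.75 in wild types. Gata1, which is required for eosinophils in the mouse, had -0.90 in mutants and 0.86 in wild types. Csf2rb, the shared chain of the receptors for interleukin 5, interleukin 3 and GM-CSF, had -0.66 in mutants and 0.93 in wild types, and Csf2rb2 is so close a copy that their signals may not be separate. The adjusted p was 0.717 for each of these apart from Gata2.

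The brightest genes of the same list were Xbp1, a factor of secretory cells, and Trib1, a regulator of C/EBP proteins. Xbp1 had 4.83 in mutants and 4.59 in wild types, and Trib1 had 3.52 in mutants and 3.23 in wild types. Il5ra, the chain that gives the receptor its specificity for interleukin 5, had -1.55 in mutants and -0.32 in wild types, a difference of -1.23 ± 0.54 (SE; limma adjusted p = 0.717). Il3ra and Csf2ra, the corresponding chains for interleukin 3 and GM-CSF, differed by 0.21 ± 0.35 and 0.30 ± 0.35 (SE). The 3 receptor chains were named after their values were seen.

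**Figure D5:**
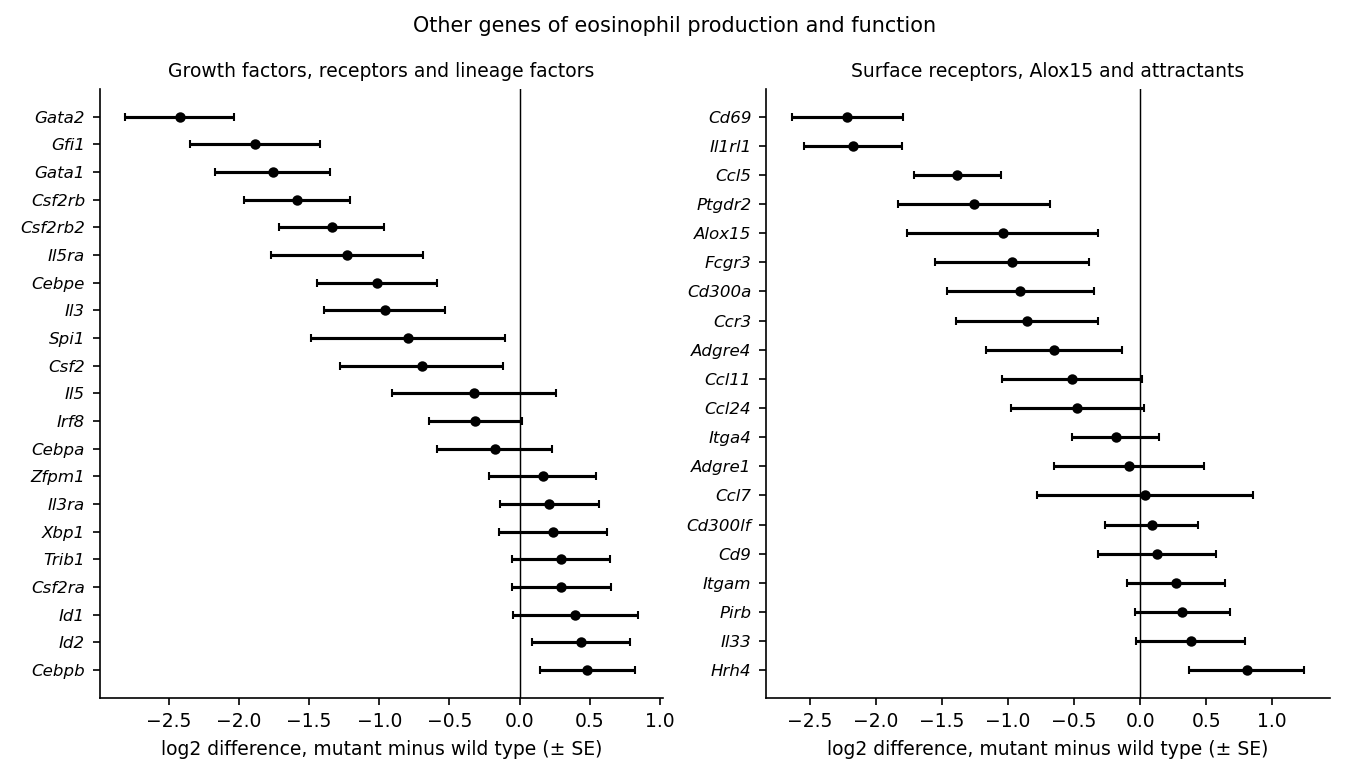
Log2 difference, mutant minus wild type, with its standard error for the genes tested in the list of growth factors, receptors and lineage factors (left) and in the list of surface receptors, enzymes and attractants (right), each sorted from the lowest. Of the 21 genes on the left 13 lie below 0, and of the 20 on the right 13 lie below 0.

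A further list held 21 surface receptors, enzymes and attractants of eosinophils. Of these 20 were tested, since Ccr1 was well above background on only 1 array; 13 had a lower mean in mutants and the median difference was -0.50, beside the same 0.05. By limma 0 passed, and 3 had an unadjusted p under 0.05, all lower in mutants, beside 1074 lower and 153 higher of all 40227 features. In 3 genes of the list every mutant was lower than every wild type, beside 0.532% of all features. Pirb and Itgam, the brightest, are an inhibitory receptor and an integrin of myeloid cells, and Pirb had 8.79 in mutants and 8.47 in wild types while Itgam had 4.46 in mutants and 4.18 in wild types. Ccr3, the eotaxin receptor, had -0.99 in mutants and -0.14 in wild types, a difference of -0.86 ± 0.54 (SE). Il1rl1, the receptor for the alarmin Il33, had -2.75 in mutants and -0.58 in wild types, a difference of -2.17 ± 0.37 (SE; limma adjusted p = 0.131), and Cd69, an activation marker, differed by -2.22 ± 0.42 (SE; limma adjusted p = 0.263). Ccr3, Il1rl1 and Cd69 were named after their values were seen, and the last 2 had no overlap between the genotypes; Cd69 was well above background on only 1 mutant array, so the size of its difference is read against spots near background.

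Lists of markers of 3 other kinds of blood cell had lower median differences in mutants, and their part in the result was not tested. Over all features, 0.0447% passed with mutants lower. The markers of these 3 lists that were higher in mutants were Tpsb2 (difference 0.12), Elane (0.18) and Csf3r (0.37). Of 9 megakaryocyte and platelet markers all 9 were lower in mutants, with a median difference of -2.80, and 3 passed (Treml1, Gp9 and Gp1ba); the log2 of their summed level was 2.71 to 4.08 in mutants and 5.49 to 6.66 in wild types. Of 10 mast cell and basophil markers tested, of 11 on the array, 9 were lower, with a median difference of -1.08, and 1 passed, Hdc, with a summed level of 1.82 to 2.54 in mutants and 3.14 to 3.98 in wild types; none of the 8 arrays had Ms4a2, a chain of the IgE receptor, well above background. Of 12 neutrophil markers 10 were lower, with a median difference of -1.03, and 3 passed (S100a8, S100a9 and Mpo), with a summed level of 5.75 to 6.37 in mutants and 5.39 to 6.43 in wild types. The first 2 sums were apart between the genotypes, though the median levels of the mast cell and basophil markers, -4.41 to -2.63 in mutants and -2.66 to -1.98 in wild types, overlapped. The neutrophil sum, which its brightest gene Csf3r (5.83 in mutants and 5.46 in wild types) dominates, overlapped, but the median levels of the neutrophil markers, -2.81 to -1.43 in mutants and -0.70 to -0.24 in wild types, did not. All of these calls were lost with litter as a replicate block, where no feature passed (lowest limma adjusted p = 0.0531), and without any one of mutants 1 and 3 and wild types 1, 3 and 4.

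In the other lists no gene passed by limma. Over all 40227 features, 1074 were lower and 153 higher in mutants at an unadjusted p under 0.05 by limma. Of 10 macrophage markers tested, of 11 on the array, 9 were lower in mutants with a median difference of -0.23, and none had an unadjusted p under 0.05; their summed level was 3.18 to 4.86 in mutants and 3.64 to 5.06 in wild types. Of 6 general leukocyte markers 5 were lower, 3 of them at an unadjusted p under 0.05, with a summed level of 4.09 to 4.86 in mutants and 4.41 to 4.93 in wild types; the sums overlapped, while the median levels, 0.27 to 1.02 in mutants and 1.03 to 1.69 in wild types, did not. Of 8 erythroid markers 1 was lower and none had an unadjusted p under 0.05, with a summed level of 9.47 to 10.9 in mutants and 8.35 to 11.0 in wild types. Liver markers, from an organ removed before dissociation, summed to 5.10 to 6.71 in mutants and 4.07 to 5.02 in wild types. Of the 5 liver markers 1 was lower, again with none at an unadjusted p under 0.05. The liver sums did not overlap and were higher in mutants, while the median levels overlapped. Trf, the brightest liver marker on average, had 5.06 in mutants and 4.41 in wild types and was the only liver marker without overlap.

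The mean pattern of the 9 genes over the 8 arrays was compared with 21452 other named genes, fewer than all those tested, as a description. Each gene was centred on its own mean, and likeness was the root mean square difference from the mean pattern in log2 units. Gp6, the platelet collagen receptor, was the closest of 21452 genes at 0.319, followed by Mpig6b, an inhibitory receptor of platelets, at 0.411, Gfi1 at 0.437, Arhgap15 at 0.494 and Btk, a kinase of B and myeloid cells, at 0.503. Among the 9 genes themselves, which all enter the mean pattern, Ear1 was nearest to it at 0.298 and Ear2 the farthest at 1.71. The 8 arrays share the genotype difference and the arrays that stood apart.

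The RefSeq promoter windows of GRCm38.p6, 250 bases before to 50 bases after each start, were read for shared sequence and motifs. The 5 ribonuclease genes, chosen with their values known, were all lower in mutants, with differences from -5.43 for Ear2 to -1.45 for Ear6. A window was given for 8 of the 9 genes, all but Prg2. The windows of Ear1 and Ear2 were identical at 98.0% of 300 aligned bases, those of Ear1 and Ear10 at 92.3%, those of Ear1 and Ear6 at 86.3% and those of Ear1 and Rnase2a at 75.3%. A stretch of 54 bases around a run common to the 5 windows is shown, with matches to TTGCNNAA, a core often found in C/EBP sites, in capitals.
Ear1 (chr14:43819723-43819776, minus strand): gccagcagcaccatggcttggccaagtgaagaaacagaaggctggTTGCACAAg
Ear2 (chr14:44102519-44102572, plus strand): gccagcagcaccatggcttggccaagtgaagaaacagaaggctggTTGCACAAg
Ear10 (chr14:43923682-43923735, minus strand): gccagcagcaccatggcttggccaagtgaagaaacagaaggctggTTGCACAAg
Ear6 (chr14:51853611-51853664, plus strand): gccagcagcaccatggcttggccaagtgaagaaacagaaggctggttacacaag
Rnase2a (chr14:51256238-51256291, minus strand): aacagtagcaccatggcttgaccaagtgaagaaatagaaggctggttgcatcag
The match began 92, 90 and 94 bases before the start in Ear1, Ear2 and Ear10, and Rnase2a held a match elsewhere, 217 bases before its start. On either strand, TTGCNNAA was found in 4 of the 8 windows and in 10.8% of 32851 promoters of the same length, and the 4 genes are relatives with shared sequence.

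GATA factors bind cores such as AGATAA and TGATAA, and these letters were looked for on both strands. They were found in 2 of the 8 windows, Prg3 and Siglecf, and in 18.6% of all promoters. In Prg3 the match was on the other strand and began 123 bases before the start; in Siglecf it began 11 bases after the start. Both are shown on the plus strand with the match in capitals.
Prg3 (chr2:84988055-84988134): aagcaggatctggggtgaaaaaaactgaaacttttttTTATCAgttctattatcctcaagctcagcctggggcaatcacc
Siglecf (chr7:43351315-43351390): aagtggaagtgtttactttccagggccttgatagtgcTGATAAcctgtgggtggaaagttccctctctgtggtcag
GAGGAA, a core of PU.1 sites, was found in Rnase2a and Siglecf, 2 of the 8 windows, beside 28.3% of all promoters. None of these motifs overlapped another in the 8 windows, and a match in these letters is a description of the sequence.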

How the data were processed

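RNA of CD31-enriched cells from 8 embryos was read on 1-colour Agilent arrays, 1 per embryo. Per the file headers, the deposited intensity values came from Agilent Feature Extraction 10.7.3.1 and the processed signal is background-subtracted on a linear scale. The authors' deposited log2 values were used as an alternative; limma is named in the submitters' processing notes, and other steps are not given in the sources used here.

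The log2 of the processed signal minus each array's 75th percentile over spots that are not controls was used. Spots called outliers were left out, spots of a probe averaged, and the brightest probe kept for each gene among those well above background on at least 4 of 8 arrays. Names came from RefSeq accessions, then symbols and synonyms, of GRCm38.p6. The fits (limma 3.58.1 in R 4.3.3, Benjamini-Hochberg adjusted p under 0.05) compared genotypes over 40227 features, then litters with genotype in the fit, then their interaction, and were tested on simulated data. Intervals are 95% intervals of the estimates. Every gene and list was chosen with earlier results of these data known. Named are all 9 genes with every probe, every listed gene that passed or else the 2 brightest of its list, Gata2, and the 5 genes nearest in pattern; others are said to be named after their values were seen.

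The replicate numbers follow the litters, which the labels give, and each litter was also 1 slide, so slide and litter cannot be told apart. Deviations from the genotype means correlated at 0.27 on average between arrays of the other genotype in the same litter (-0.16 to 0.74) and at -0.27 between litters, and the paired fit used litter as a block. Alternatives were other scalings, background corrections, filters and probe rules, each array left out in turn, and the 3 arrays that stood apart left out together.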

Additional observations from a re-analysis of the deposited data

How the results depend on the processing

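At the brightest probe, the mutant minus wild type difference of all 9 genes stayed below 0 in all 153 values computed over 17 alternatives. Not all of these are separate readings, and the genes were chosen with this difference known. No filter, a filter on all arrays and litter as a block left every difference unchanged. The authors' values gave the same differences as scaling to the array median. The median over the 9 genes, -2.12, was -1.19 after normexp with quantile normalization, and lay between -2.40 and -1.92 when 1 array was left out. The 3 of 9 genes that pass became 0 after quantile normalization, after normexp, with litter as a replicate block, without mutant 1, mutant 3 or any one wild type array, and without the 3 arrays that stood apart; they became 1 with no filter or a filter on all arrays. Over all features, 18 passed between genotypes: 3 after quantile normalization, 5 after normexp, 52 with the authors' values (40 lower, 12 higher in mutants), 30 with floored signals, 8 with no filter, and 0 with litter as a replicate block (limma; 1954 at an unadjusted p under 0.05) or without the 3 arrays. With 1 array left out they ranged from 0 (without mutant 1, mutant 3, wild type 1, 3 or 4) to 24, with 6 without wild type 2. Between litters 1975 passed: 1011 with scaling to the median, 817 after quantile normalization, 5843 without the 3 arrays, and 4 (without mutant 2) to 3963 (without wild type 2) with 1 array left out. The interaction had 0, and 3 with the authors' values; that of Prg3 was -0.0096 without mutant 4 and at most 2.24 with 1 array left out, and -0.021 without the 3 arrays. Ear2 passed between litters with the authors' values (limma adjusted p = 0.0139, and 0.0139 to 0.547 over the alternatives). Scaling to the array median gave the same Ear2 difference without a call (limma adjusted p = 0.0785). Epx passed between litters without the 3 arrays (limma adjusted p = 0.0489). The production list had 0, and 1, Gata2, with floored signals (limma adjusted p = 0.0492) or a filter on all arrays (limma adjusted p = 0.0283). Over the alternatives the limma adjusted p of Gata2 reached 0.853. The surface list had 0, and 1 with a filter on all arrays. The related families had 1, and 0 after quantile normalization, normexp, no filter, the replicate block, or without the 3 arrays, and 0 to 1 with 1 array left out. Except where a count follows from fewer arrays or another set of features tested, the cause was not tested. Spots not well above background limit the size of the Ear2 and Epx differences.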
